A study of Mus musculus with 4 samples.

Results

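The mural endocardium with *Kcnc2* or *Slit2* is a class of endothelial cell barcodes from mouse ventricles at embryonic day 14.5. It was chosen by the counts of named genes, and 879 of the 45551 barcodes in the 4 libraries met the rule. Control replicates 1 and 2 held 278 and 186 of them, and *Ets1* eKO replicates 1 and 2 held 169 and 246. A barcode tags the RNA of 1 droplet, usually a single cell, and its RNA molecules are counted as unique molecular identifiers (UMIs). Members had 1000 to 7000 detected genes, at most 10% mitochondrial UMIs, and less than 0.5% of UMIs from the cardiomyocyte genes *Tnnt2*, *Actc1*, *Tnnc1* and *Ttn*. They held at least 4 UMIs of the endothelial genes *Pecam1*, *Cdh5*, *Emcn* and *Egfl7* together, and *Fabp4*, a coronary endothelial gene, made up less than 0.1%. The sum of *Npr3*, *Ednrb* and *Adgrg6* was at least 2 UMIs and exceeded that of the valve-side genes *Prox1*, *Nfatc1* and *Wnt4*. Cycling barcodes (*Top2a* and *Mki67* above 1 UMI together), those with more than 1 UMI of *Dlk1* and those with more than 2 of *Nrg1* were set aside. The last condition was a sum of *Kcnc2* and *Slit2* of at least 2 UMIs.

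Both groups carried the Cre recombinase driven by the *Tie2* promoter, which is active in endothelial cells and also in blood cells. Controls were Tie2Cre;*Ets1* fl/+, so they carried a floxed *Ets1* allele beside an intact allele, and *Ets1* eKO embryos were Tie2Cre;*Ets1* fl/fl. Each of the 2 libraries per group pooled the ventricles of 3 embryos at embryonic day 14.5, so the library is the unit of every test and the spread between embryos within a pool is not seen. The sample titles name neither a batch nor the sex of single embryos, and the part of batch in the results was not tested. The study asked how endothelial *Ets1* acts on growth of the ventricular wall.

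The endocardium is the endothelial lining of the heart chambers, and its mural part covers the ventricular wall and trabeculae, the muscle ridges that project into the lumen. Endocardial cells exchange signals with the myocardium through secreted ligands and matrix. *Slit2* encodes a secreted ligand that is read by Robo receptors and was first known from axon guidance. *Kcnc2* encodes a subunit of a voltage-gated potassium channel of the Kv3 family. *Ets1* encodes a transcription factor of the ETS family, whose members bind DNA sites with the core GGAA.

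Members held 2210102 and 1586255 UMIs in control replicates 1 and 2 and 1320512 and 1262070 UMIs in *Ets1* eKO replicates 1 and 2. The median member held 6943, 7468.5, 7165 and 4528.5 UMIs in the same order, the last being the shallowest library. Pairs of libraries shared 19 to 47 barcodes, and none of these was a member in both libraries. Barcodes with the highest scores against simulated doublets made up 10, 5, 6 and 16 of the members, and these stayed in the main analysis. The female-specific transcript *Xist* held 0 UMIs in control replicate 1, which allows up to 1.36 CPM (UMIs of a gene when all UMIs of a class in a library are scaled to 1000000), and 519.5, 467 and 884 CPM in the other libraries. The Y-linked *Ddx3y* held 110, 42.2, 38.6 and 1.58 CPM, so the sexes were not balanced across the pools, and the part of sex in the results was not tested. The Y-linked *Eif2s3y* (60.2, 34.0, 18.9 and 0 CPM, log2 fold change -2.27) and *Kdm5d* (31.2, 12.0, 4.54 and 0 CPM, -3.19) were among the genes called lower in *Ets1* eKO below, calls that 4 and 3 of 13 alternatives did not make.

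Levels are given below as CPM of the summed UMIs of a class in a library, always in the order control replicates 1 and 2, then *Ets1* eKO replicates 1 and 2. The counts of the selecting genes are a description, because they chose the members. *Kcnc2* (ENSMUSG00000035681, chr10:112271121-112467024 in GRCm38, plus strand) stood at 425, 378, 556 and 418 CPM. *Slit2* (ENSMUSG00000031558, chr5:47983138-48307733, plus strand) stood at 487, 643, 376 and 501 CPM. *Npr3*, which encodes the natriuretic peptide clearance receptor and marks the mural endocardium (chr15:11839896-11907287, minus strand), held 866, 802, 870 and 626 CPM. The groups overlapped for each of these 3 genes. Of the 879 members, 127 held *Kcnc2* without *Slit2*, 317 held *Slit2* without *Kcnc2*, and 435 held both. The sum of the pair reached 73 UMIs at its highest, and 220 members held exactly 2. Those just inside the limit averaged 93.6 CPM of *Kcnc2* and 226 CPM of *Slit2*, and barcodes just outside it, with a sum of 1, averaged 38.0 and 137 CPM.

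**Figure D1:**
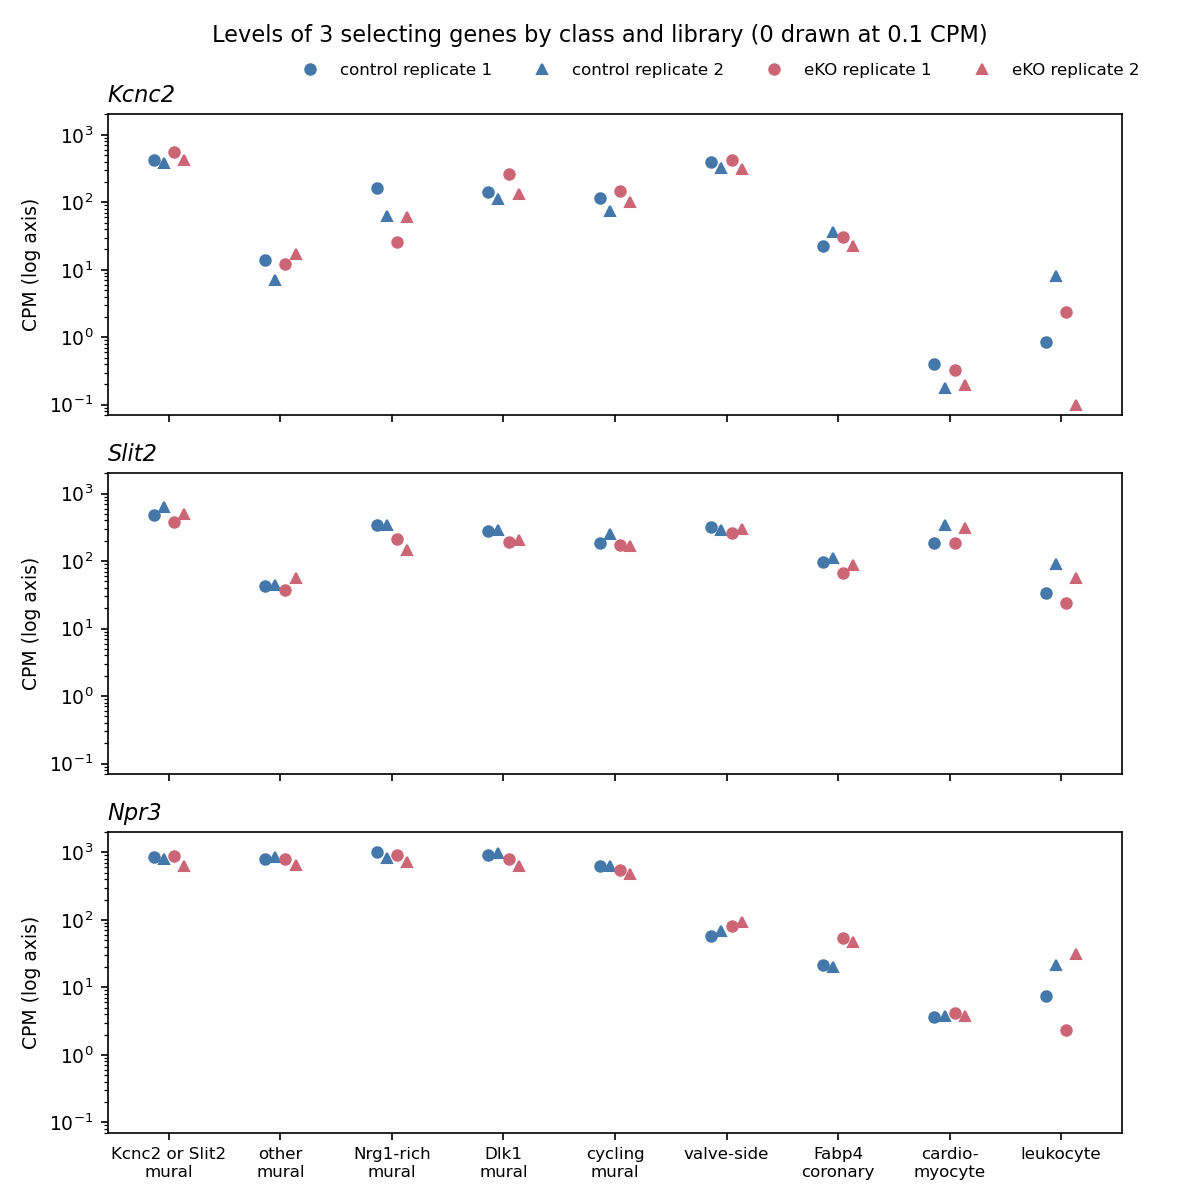
Level of Kcnc2, Slit2 and Npr3 in CPM on a log axis, by gated class (horizontal axis) and library (circles replicate 1, triangles replicate 2, blue control, red eKO). Kcnc2 averaged 444 CPM in the Kcnc2 or Slit2 mural class, 361 CPM in valve-side barcodes and 0.277 CPM in cardiomyocyte barcodes, whereas Slit2 was also present in cardiomyocyte barcodes at 256 CPM.

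The 2 genes differed in how far they extended beyond the mural endocardium, as the plot of levels by class shows. Mural barcodes that met all other conditions with a sum of at most 1 are called the other mural endocardium here (1212 barcodes). *Kcnc2* averaged 12.6 ± 4.33 CPM and *Slit2* 45.2 ± 7.96 CPM in them (SD, n = 4 libraries), low levels that this limit sets. Mural barcodes set aside for *Nrg1* averaged 77.55 ± 58.3 CPM of *Kcnc2* and 260 ± 97.3 CPM of *Slit2* (SD, n = 4). Those set aside for *Dlk1* averaged 164 ± 68.1 and 242 ± 50.6 CPM, and cycling mural barcodes 110 ± 29.3 and 193 ± 38.05 CPM (SD, n = 4). Valve-side barcodes, in which valve genes equalled or exceeded the mural genes, held 361 ± 54.2 CPM of *Kcnc2* and 296 ± 25.1 CPM of *Slit2* (SD, n = 4). Coronary barcodes, selected by *Fabp4*, held 27.7 ± 6.70 and 89.7 ± 18.6 CPM (SD, n = 4). Cardiomyocyte barcodes averaged 0.277 ± 0.108 CPM of *Kcnc2* but 256 ± 81.1 CPM of *Slit2* (SD, n = 4), so *Slit2* UMIs were not restricted to endothelial barcodes. These means span both groups. In *Nrg1* barcodes *Slit2* held 343 and 339 CPM in controls against 212.5 and 145 CPM in *Ets1* eKO. In *Dlk1* barcodes it held 283 and 288 against 193 and 204 CPM. Cycling and coronary barcodes also had both controls above both *Ets1* eKO libraries. The groups overlapped in valve-side, other mural and cardiomyocyte barcodes, and none of this was tested.

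Shares of barcodes with a *Slit2* UMI were compared after thinning to 5000 UMIs, and barcodes with fewer UMIs were left out. The median cardiomyocyte barcode held 8484.5 to 13883 UMIs per library and the median leukocyte barcode 4298 to 7353. The loss was uneven: 118 of 161 leukocyte barcodes were kept in control replicate 1 and 89 of 255 in *Ets1* eKO replicate 2. Of the cardiomyocyte barcodes in that eKO library, 4748 of 5434 were kept. *Slit2* was detected in 17.8%, 20.2%, 19.6% and 27.1% of cardiomyocyte barcodes and in 1.69%, 5%, 7.97% and 10.1% of leukocyte barcodes, which should lack it. In mural barcodes without a *Kcnc2* UMI it was detected in 49.2%, 48.0%, 38.8% and 44.4%. Mural barcodes with a *Kcnc2* UMI held it in 68.4%, 69.7%, 58.4% and 70.5%, above the share without *Kcnc2* in each of the 4 libraries. Leukocyte barcodes rested on 80 to 138 thinned barcodes per library. The part of free RNA in the *Slit2* UMIs of members was not tested.

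Members made up 52.0% (exact 95% interval 47.6 to 56.3) and 50.3% (45.1 to 55.5) of the comparable mural barcodes in controls, against 43.0% (38.1 to 48.1) and 31.0% (27.8 to 34.4) in *Ets1* eKO. These intervals cover counting error only. The limit on *Dlk1* had removed a larger share of the non-cycling mural barcodes in *Ets1* eKO. It took them from 908 to 745 and from 625 to 528 in controls. In *Ets1* eKO it took them from 791 to 526 and from 1408 to 968. The part of this limit in the shares was not tested. Barcodes of at least 5000 UMIs were then thinned to 5000 UMIs and the rule applied again, whereas shallower barcodes were left out. This kept 490, 360, 372 and 240 comparable mural barcodes, against 535, 370, 393 and 793 before, so the loss fell mostly on *Ets1* eKO replicate 2. The shares were then 49.0% and 47.5% against 42.2% and 45.4%. Both control shares exceeded both *Ets1* eKO shares in each case, and the group means differed by 14.1 points before and 4.43 points after thinning. The exact permutation test over libraries (two-sided) gave p = 0.333 in both, which is the smallest p that 2 against 2 libraries allow.

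The endothelial label was checked against marker lists. The rule had used 3 of the 11 endocardial and 4 of the 17 pan-endothelial genes listed. The other 8 endocardial genes summed to 3450 to 4487 CPM per library in members, against 267 to 380 CPM in coronary and 314 to 479 CPM in cardiomyocyte barcodes. The other 13 pan-endothelial genes summed to 5783 to 5912 CPM in members, against 19.97 to 32.5 CPM in cardiomyocyte barcodes. The sum of the 9 coronary genes other than *Fabp4* did not set members apart from coronary barcodes, at 4851 to 6103 CPM against 4213 to 6719 CPM. Only 4 of these 9 genes passed the filter on low counts in members, so the sum does not speak for each gene. Leukocyte genes summed to 1.51 to 5.88 CPM with *Ptprc* at 0, and epicardial genes to 10.9 to 19.02 CPM with *Upk1b* at 0. The cardiomyocyte list summed to 1295, 750, 1218 and 1491 CPM. The fibroblast and mesenchyme list summed to 626, 455, 915 and 1016 CPM, higher in both *Ets1* eKO libraries than in either control. Erythroid genes varied most, at 2100, 6783, 192 and 1086 CPM.

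*Ets1* (ENSMUSG00000032035, chr9:32636221-32757820, plus strand) was lower in *Ets1* eKO members. Control libraries held 328 and 323 CPM and *Ets1* eKO libraries 141 and 123 CPM, without overlap. This is a log2 fold change of -1.27 with a standard error (SE) of 0.16 (adjusted p = 0.000478, quasi-likelihood test of edgeR, adjusted by Benjamini-Hochberg). Members deep enough to be thinned to 5000 UMIs numbered 229, 157, 149 and 101. Of these, 74.2% and 75.8% in controls held an *Ets1* UMI, against 49.0% and 50.5% in *Ets1* eKO. The libraries count the 3′ ends of transcripts and the floxed exons are not given in the sources used here, so transcripts of a recombined allele and those of cells that kept an intact allele cannot be told apart.

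Of 9917 genes tested in members, 169 (1.7%) passed an adjusted p of 0.05 between *Ets1* eKO and control. They were 93 genes that rose (0.938%) and 76 that fell (0.766%), with 2 libraries per group. These shares of all genes apply to every list count of this comparison below. With total count scaling 84 rose and 89 fell, so which direction held more calls depended on the scaling. The groups did not overlap, with *Ets1* eKO higher, in 19.5% of all genes tested and, with *Ets1* eKO lower, in 25.3%. The count rested on which library was used: it was 710 without *Ets1* eKO replicate 1, 418 without replicate 2, and 124 without either control in turn. DESeq2 called 73 genes, all of them among the 169. Fewer cells of a type within the class and less RNA per cell cannot be told apart in these sums.

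**Figure D2:**
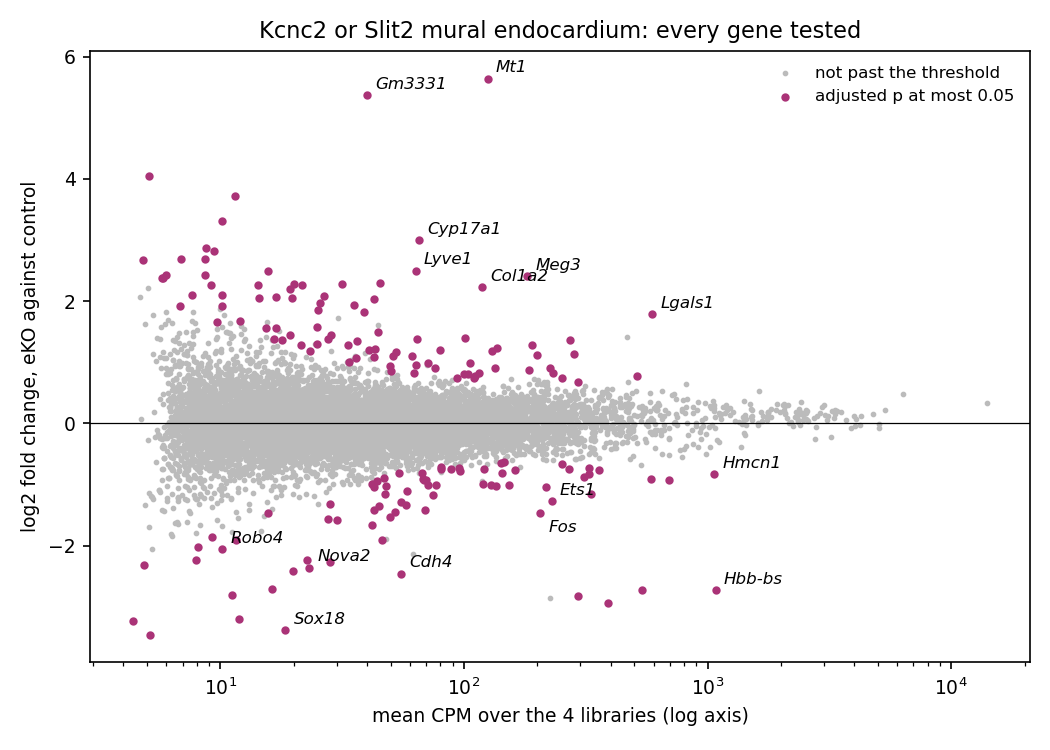
Log2 fold change of eKO against control (vertical axis) against mean CPM (horizontal, log axis) for the 9917 genes tested in members; purple points are the 169 genes at an adjusted p of at most 0.05. Mt1 and Gm3331 lie far above the other genes that rose, at 5.64 and 5.37, and Ets1 is among the genes that fell, at -1.27.

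*Mt1*, which encodes the zinc- and copper-binding metallothionein 1 (chr8:94179082-94180327), rose most among genes of at least 20 CPM. Controls held 6.79 and 2.52 CPM, whereas *Ets1* eKO libraries held 270 and 220 CPM (log2 fold change 5.64, SE 0.27, adjusted p = 9.69e-10, edgeR). Its UMIs were found in 2.62% and 1.91% of control members and in 70.5% and 58.4% of *Ets1* eKO members at 5000 UMIs. Cardiomyocyte barcodes held 216, 228.5, 363.5 and 195 CPM of *Mt1* and leukocyte barcodes 412, 953.5, 672 and 386.5 CPM, with controls and *Ets1* eKO overlapping in both. The part of free RNA in the *Mt1* UMIs of members was not tested. Of the 5 metallothionein and zinc genes tested, *Mt1* was the only call, and the median log2 fold change of the list was -0.24 beside 0.0018 over all genes. The sum of this list was not particular to members. It held 59.4 and 73.5 CPM in controls against 353 and 273 CPM in *Ets1* eKO in the other mural endocardium. Coronary barcodes held 64.6 and 61.1 against 288 and 228 CPM. *Nrg1*, *Dlk1* and valve-side barcodes also had both *Ets1* eKO libraries above both controls.

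*Gm3331*, a gene of unknown function (chr9:32813734-32834104), begins 55914 bases beyond the end of *Ets1* on the same chromosome. Controls held 1.36 and 2.52 CPM of it, at about the level that a count of 0 allows, and *Ets1* eKO libraries 75.7 and 80.0 CPM (log2 fold change 5.37, SE 0.35, adjusted p = 9.56e-08, edgeR). Whether its level follows the modified *Ets1* allele was not tested.

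Imprinted long non-coding RNAs of the *Dlk1*-*Dio3* region rose. For *Meg3* (chr12:109541001-109571726), controls held 59.3 and 58.0 CPM and *Ets1* eKO libraries 298 and 311 CPM (log2 fold change 2.41, SE 0.16, adjusted p = 1.3e-07, edgeR). *Rian*, from the same region, stood at 9.05 and 12.0 CPM against 44.7 and 41.2 CPM (log2 fold change 2.08). Both were the only calls among 14 imprinted growth genes tested, whose median was 0.046. *Igf2*, an imprinted growth factor gene, held 1880, 1665, 2026 and 1702 CPM (log2 fold change 0.11, adjusted p = 0.846, edgeR). *Dlk1* lies in the region too, and its count was part of the rule: its levels were 16.7, 17.0, 37.9 and 65.0 CPM in the same order.

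Other genes with large rises had varied roles. *Cyp17a1*, which encodes a steroid-synthesis enzyme, went from 14.0 and 15.8 CPM to 126 and 105 CPM (log2 fold change 2.996, SE 0.22). *Lyve1*, a hyaluronan receptor gene used as a lymphatic marker, went from 27.6 and 9.46 CPM to 126.5 and 89.5 CPM (2.50, SE 0.29). *Kcnb2*, a voltage-gated potassium channel gene, went from 11.8 and 20.2 CPM to 64.4 and 84.8 CPM (2.30, SE 0.27). The groups did not overlap in any of these 3 genes, and the controls of *Lyve1* differed among themselves. *Lgals1*, which encodes galectin-1, was chosen after its values were seen as the call with the highest level among genes that rose, and went from 265 and 275 CPM to 895 and 932 CPM (1.79, SE 0.17). *Idi1*, which encodes an isomerase of the isoprenoid pathway, went from 5.43 and 8.83 CPM to 32.6 and 33.3 CPM (2.28, SE 0.34). *Aard* and *Ifi27l2a*, the latter known as an interferon-induced gene, rose by 2.27 and 2.26 on the log2 scale.

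**Figure D3:**
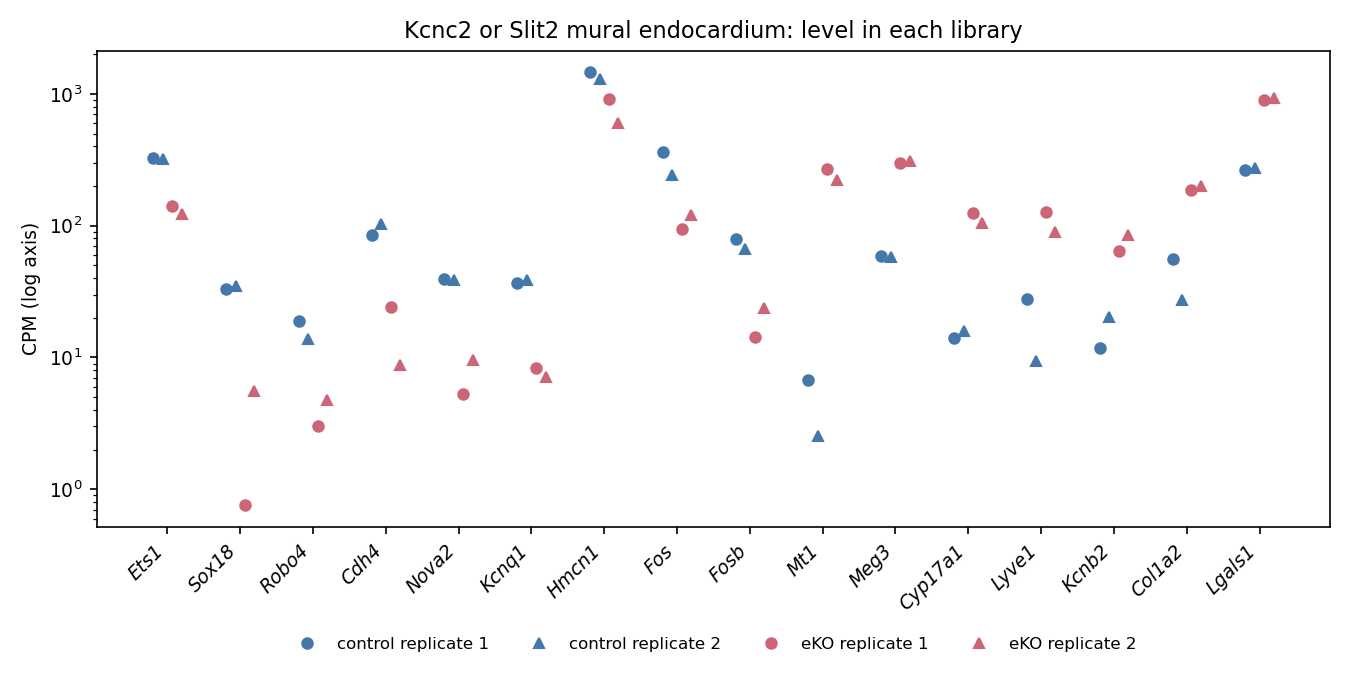
Level in CPM (log axis) of 16 genes in members of each library; circles are replicate 1, triangles replicate 2, blue control and red eKO. From Ets1 to Fosb both eKO libraries lie below both controls, and from Mt1 to Lgals1 both lie above them.

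Genes of the extracellular matrix changed in both directions. Of 29 basement membrane and matrix genes tested, 2 rose and 1 fell, with a median log2 fold change of 0.049. *Col15a1*, a basement membrane collagen gene, rose from 0.905 and 2.52 CPM to 20.4 and 22.2 CPM (log2 fold change 3.72, SE 0.49). *Mgp*, which encodes matrix Gla protein, an inhibitor of calcification, rose from 431 and 334 CPM to 589 and 694 CPM (0.78). The *Mgp* call was not made by 2 of the 13 alternatives. *Hmcn1*, which encodes the large basement membrane protein hemicentin-1 (chr1:150562524-150993435), fell from 1456 and 1299 CPM to 913 and 599 CPM (-0.83, SE 0.20, adjusted p = 0.0429, edgeR), a call that 4 of the 13 alternatives did not make. *Col18a1*, the collagen gene that is the source of endostatin, held 686 and 699 CPM against 626 and 556 CPM (-0.20, adjusted p = 0.646, edgeR).

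Fibroblast and mesenchyme genes were higher in 3 of the 7 tested, against 0.938% of all genes, with a median of 1.04. *Col1a2*, a fibrillar collagen gene, rose from 55.7 and 27.1 CPM to 188 and 201 CPM (log2 fold change 2.22, SE 0.22), *Lum* by 1.93 and *Col3a1* by 0.74. Of the 13 alternatives, 5 did not make the *Col3a1* call (0.20 to 0.95) and 2 did not make that of *Lum* (1.32 to 3.15). Fibroblasts express these genes strongly, and whether they were made by the members or came from other cells was not tested. Cardiomyocyte genes were higher in 1 of 13 tested (*Tnni1*, 89.6 and 72.5 CPM against 153 and 208 CPM), with a median of 0.43. All 4 genes tested from the list of mural wall cells (pericytes and smooth muscle) had positive values, with a median of 0.93, and *Abcc9*, a potassium channel regulator gene of pericytes, was called (9.05 and 11.3 CPM against 28.0 and 23.0 CPM, log2 fold change 1.37, adjusted p = 0.04, edgeR), though not in 3 of the 13 alternatives. That list summed to 81.0 and 44.8 CPM in the control libraries and to 115 and 120 CPM in the others, without overlap, and the part of these cells in the results was not tested.

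*Sox18*, which encodes an endothelial transcription factor of the SoxF family (chr2:181669836-181671640), fell in *Ets1* eKO. Controls held 33.0 and 34.7 CPM, *Ets1* eKO libraries 0.757 and 5.55 CPM, from 1 and 7 barcodes with a UMI (log2 fold change -3.38, SE 0.46, adjusted p = 0.000666, edgeR). A *Sox18* UMI was found in 13.1% and 18.5% of control members and in 0.671% and 4.95% of *Ets1* eKO members at 5000 UMIs. It was the only call among 25 endothelial transcription factor genes tested, whose median was -0.15.

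Among Slit and Robo genes, the receptors could be tested but the ligand *Slit2* could not. *Robo4*, the endothelial Robo receptor gene (chr9:37401897-37415115), fell from 19 and 13.9 CPM to 3.03 and 4.75 CPM (log2 fold change -2.05, SE 0.45, adjusted p = 0.0234, edgeR). That call was lost under 3 of the 13 alternatives. *Robo1*, a Slit2 receptor gene, stood at 76.5 and 73.1 CPM against 48.5 and 37.2 CPM (-0.77, adjusted p = 0.0612, edgeR). The list of 7 tested genes had 1 call, and its median was -0.26.

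The promoters of the genes that select the class and of genes that changed are shown because *Ets1* encodes a factor that reads the core GGAA. Each sequence is the 250 bases before the annotated start in RefSeq (GRCm38.p6), 5′ to 3′ on the strand of the gene, with GGAA or its complement TTCC in capitals. *Kcnc2* is at chr10:112270871-112271120 (+), *Slit2* at chr5:47982905-47983154 (+), *Robo4* at chr9:37401722-37401971 (+), *Hmcn1* at chr1:150993436-150993685 (-) and *Mt1* at chr8:94178839-94179088 (+).
Kcnc2: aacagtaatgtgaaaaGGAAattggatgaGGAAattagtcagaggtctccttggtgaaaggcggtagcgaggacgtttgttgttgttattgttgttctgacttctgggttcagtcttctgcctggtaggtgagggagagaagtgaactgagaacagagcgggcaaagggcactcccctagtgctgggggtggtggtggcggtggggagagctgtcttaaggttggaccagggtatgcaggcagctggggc
Slit2: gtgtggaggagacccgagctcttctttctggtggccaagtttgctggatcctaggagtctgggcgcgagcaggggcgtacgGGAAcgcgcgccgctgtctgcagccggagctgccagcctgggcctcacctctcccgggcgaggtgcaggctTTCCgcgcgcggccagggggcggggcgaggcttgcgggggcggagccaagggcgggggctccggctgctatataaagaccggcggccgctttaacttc
Robo4: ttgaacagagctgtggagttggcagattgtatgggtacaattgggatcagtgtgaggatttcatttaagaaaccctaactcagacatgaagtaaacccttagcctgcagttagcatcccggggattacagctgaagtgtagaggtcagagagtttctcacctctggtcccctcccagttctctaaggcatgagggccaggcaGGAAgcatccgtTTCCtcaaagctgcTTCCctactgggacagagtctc
Hmcn1: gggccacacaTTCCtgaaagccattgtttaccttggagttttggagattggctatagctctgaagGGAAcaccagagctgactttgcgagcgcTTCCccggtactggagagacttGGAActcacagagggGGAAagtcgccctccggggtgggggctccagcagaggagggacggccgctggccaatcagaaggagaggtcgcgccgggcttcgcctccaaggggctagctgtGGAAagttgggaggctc
Mt1: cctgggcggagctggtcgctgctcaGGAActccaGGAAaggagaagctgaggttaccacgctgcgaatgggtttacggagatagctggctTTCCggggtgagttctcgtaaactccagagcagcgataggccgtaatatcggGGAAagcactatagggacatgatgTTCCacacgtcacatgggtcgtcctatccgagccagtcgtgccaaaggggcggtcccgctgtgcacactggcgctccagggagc
The core appears 2, 2, 3, 6 and 5 times in these windows, overlaps counted. A window of this length held it in 93.4% of all 32851 promoter windows of the table, with a median of 3. The *Hmcn1* count of 6 was reached by 8.69% of windows. Of the genes that fell in *Ets1* eKO, 58 of 76 had a window, and 94.8% of these held the core, beside 94.3% of all genes tested with a window. The longer letters CCGGAA (or TTCCGG) were in a window of 6.9% of the 58 genes that fell, of 5.17% of the 58 that rose, and of 26.8% of the 7884 tested genes with a window. A match of letters is not a binding site, and no binding was measured.

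Of 15 ETS factor genes tested, 1 rose and 1, *Ets1*, fell, with a median of -0.076. *Fli1* and *Erg*, endothelial ETS factors, stood at 328, 386, 310 and 316 CPM and at 128, 124, 142 and 112 CPM (log2 fold changes -0.16 and 0.043). *Etv4* rose from 1.36 and 4.41 CPM to 10.6 and 18.2 CPM (2.43, adjusted p = 0.0209, edgeR), a call missed by 3 of the 13 alternatives.

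In the Notch list, 1 of 17 genes tested rose and none fell, with a median of -0.12. The rise was in *Heyl*, a Notch target gene, from 2.26 and 0 CPM to 8.33 and 8.72 CPM (log2 fold change 2.67, adjusted p = 0.0449, edgeR), a low level whose call was lost under 6 of 12 alternatives. *Dll4*, a Notch ligand gene, held 34.8 and 25.2 CPM against 22.7 and 18.2 CPM (-0.53, adjusted p = 0.406, edgeR), and *Notch1*, a receptor gene, 259 and 238 CPM against 189 and 199 CPM (-0.33, adjusted p = 0.353, edgeR). *Rbpj*, which encodes the DNA-binding partner of Notch, held 77.4, 70.0, 81.0 and 60.2 CPM. Of the VEGF, Tie and apelin list, 1 of 12 fell (*Robo4*), and *Kdr*, a VEGF receptor gene, held 360 and 371 CPM against 295 and 196 CPM (-0.54, adjusted p = 0.183, edgeR). Of 21 BMP and TGF-beta genes 1 fell, the inhibitory *Smad6*, from 136 and 103 CPM to 68.2 and 73.7 CPM (-0.73, a call not made by 3 of the 13 alternatives), and the median was -0.21.

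Immediate early and heat shock genes fell in 7 of 23 tested, against 0.766% of all genes, and the median of the list was -0.56. *Fos*, a subunit gene of the factor AP-1, fell from 362 and 243 CPM to 93.9 and 120 CPM (log2 fold change -1.47, SE 0.20). *Fosb* fell from 78.7 and 66.8 CPM to 14.4 and 23.8 CPM (-1.90, SE 0.25). *Jun*, *Egr1* and *Btg2* fell by 0.82, 1.01 and 1.01, and the heat shock genes *Hspa1a* and *Hspa1b*, near-identical copies whose reads may be split, fell by 2.70 and 2.41. Of 13 alternatives, 2 did not call *Jun*, 1 did not call *Egr1* and 1 did not call *Btg2*. Immediate early and heat shock genes also respond to tissue dissociation, and how far handling of the libraries differed was not tested.

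Further genes that fell include *Cdh4*, which encodes R-cadherin, from 84.6 and 103 CPM to 24.2 and 8.72 CPM (log2 fold change -2.45, SE 0.29). *Nova2*, an RNA splicing factor gene, fell from 39.4 and 38.5 CPM to 5.30 and 9.51 CPM (-2.36). *Kcnq1*, a voltage-gated potassium channel gene, fell from 36.7 and 38.5 CPM to 8.33 and 7.13 CPM (-2.23), and was the only call among the 7 tested genes of the potassium channel list, which does not hold *Kcnb2*. *Inpp5d*, a lipid phosphatase gene, fell by 1.66.

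No gene passed among 8 endocardial, 13 pan-endothelial, 11 junction, 22 S phase, 14 glycolysis or 80 ribosomal protein genes tested with edgeR. The medians of these lists were -0.19, -0.0061, -0.0061, 0.35, 0.23 and 0.14, and all 22 S phase genes had positive values. Among 80 nuclear respiratory chain genes 1 rose (*Cox6b2*, not called in 4 of 13 alternatives) and the median was 0.24. Mitochondrial UMIs made up 3.72%, 4.04%, 3.001% and 3.04% of member UMIs, and genes of at least 100 kb 18.95%, 19.2%, 17.9% and 16.2%, both lower in *Ets1* eKO. Genes that fell had a median length of 60.6 kb and those that rose 31.6 kb, beside 27.6 kb over all tested, and the part of RNA quality and gene length was not tested. Axon guidance genes other than Slit and Robo rose in 2 of 20 tested, *Unc5c* and *Sema5a*, both encoding guidance receptors or ligands, with log2 fold changes of 1.39 and 1.56, but 13 of the 20 had negative values and the median was -0.30. The *Sema5a* call was lost in 3 of 13 alternatives.

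Hemoglobin genes were lower in *Ets1* eKO members: 4 of 6 erythroid genes fell, with a median of -2.77. *Hbb-bs* stood at 1144, 2614, 63.6 and 492 CPM (log2 fold change -2.73, adjusted p = 0.013, edgeR), with a wide spread in both groups. The calls depended on 4 of the 879 members, 2 in control replicate 1 and 1 each in control replicate 2 and *Ets1* eKO replicate 2, that held over 2% hemoglobin UMIs. Without them, in an alternative chosen after the data were seen, *Hbb-bs* had a log2 fold change of 0.68 (adjusted p = 0.447, edgeR), and the total count of calls was 178.

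The eKO effect was then compared between members and the other mural endocardium. Fitted alone, the latter also had *Mt1*, *Meg3*, *Rian*, *Col15a1*, *Col1a2*, *Lum* and *Tnni1* called higher. *Ets1*, *Sox18*, *Robo4*, *Kcnq1*, *Smad6*, *Fos*, *Fosb*, *Jun*, *Btg2*, *Hspa1a* and *Hspa1b* were called lower there too. *Hmcn1*, *Mgp*, *Col3a1*, *Abcc9*, *Etv4*, *Heyl*, *Egr1*, *Unc5c*, *Sema5a* and *Cox6b2* were among the calls in members that were not made there. A term for the difference passed in 10 of 10355 genes (0.0966%), 1 with a more positive change in members (0.00966%) and 9 with a more negative one (0.0869%). Total count scaling gave 3 and 9. The count and the balance of directions also depended on which library was left out. For *Ets1* itself the difference was 0.16 (SE 0.14, adjusted p = 0.982, edgeR), and in the other mural endocardium it held 261 and 254.5 CPM against 99.5 and 84.5 CPM. The gene with the more positive change was *Unc5c*, a netrin receptor gene (chr3:141465216-141834924). In members it went from 36.2 and 35.9 CPM to 108 and 76.9 CPM, and in the other mural endocardium from 55.4 and 64.7 CPM to 71.6 and 49.3 CPM. The difference was 1.31 (SE 0.22, adjusted p = 0.00434, edgeR), but 5 of 10 alternatives did not call it, DESeq2 among them. Hemoglobin genes were 6 of the 9 others. With marked doublets removed no gene passed in edgeR, and 500 had an unadjusted p under 0.05.

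Members with *Kcnc2* alone and those with *Slit2* alone were not alike in genes that the rule did not use. Sums of 39, 17, 27 and 44 barcodes with at least 2 *Kcnc2* UMIs and no *Slit2* were compared with 93, 78, 43 and 103 barcodes with at least 2 *Slit2* UMIs and no *Kcnc2*, with the library as a term. Of 6044 genes tested, 134 (2.22%) passed: 82 higher with *Kcnc2* (1.36%) and 52 higher with *Slit2* (0.86%). DESeq2 called 22 of these. Dropping the filter on low counts turned the balance, to 50 higher with *Kcnc2* and 77 higher with *Slit2*. Without control replicate 1 a total of 71 genes passed, 63 of them among the 134, and without *Ets1* eKO replicate 2 a total of 75, 66 of them among the 134.

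*Igfbp5*, which encodes an insulin-like growth factor binding protein (chr1:72857932-72874884), was the strongest call by p and is named after its values were seen. It stood at 4372, 4063, 3393 and 2971 CPM with *Kcnc2* alone and at 1464, 1595, 1427 and 1041 CPM with *Slit2* alone, so no library of the first overlapped the second. The log2 difference was 1.44 (SE 0.07, adjusted p = 6.05e-19, edgeR). *Sema3a*, a secreted semaphorin gene, was higher with *Kcnc2* in 4 of 4 libraries: 355, 531, 488 and 458 CPM against 115, 232, 157 and 163 CPM (1.49, SE 0.13). *Mfap5*, a microfibril protein gene, was higher by 1.59 and *Ramp3*, a receptor activity modifying protein gene, by 1.81, a call that 4 of 11 alternatives did not make.

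*Lyve1* was higher with *Kcnc2* in all 4 libraries, at 36.2, 7.92, 236 and 200.5 CPM against 17.4, 5.04, 30.7 and 24.1 CPM (log2 difference 2.46, SE 0.30). The highest levels were those of the *Ets1* eKO libraries with *Kcnc2* alone. *Nts*, which encodes the peptide neurotensin, stood at 1068 and 990 CPM in controls with *Kcnc2* alone and at 273 and 51.4 CPM in *Ets1* eKO, against 275, 77.2, 27.3 and 126 CPM with *Slit2* alone. It was higher with *Kcnc2* in 3 of 4 libraries (2.11, SE 0.27), and *Ets1* eKO replicate 2 went the other way. The *Nts* call was lost in 2 of 11 alternatives. Potassium channel genes other than *Kcnc2* were higher in 3 of 5 tested, beside 1.36% of all genes: *Kcnd3* by 1.29, *Kcnh1* by 1.41 and *Kcnq1* by 1.48. The *Kcnh1* call was lost in 5 of 11 alternatives, that of *Kcnd3* in 3 of 11 and that of *Kcnq1* in 2 of 8.

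**Figure D4:**
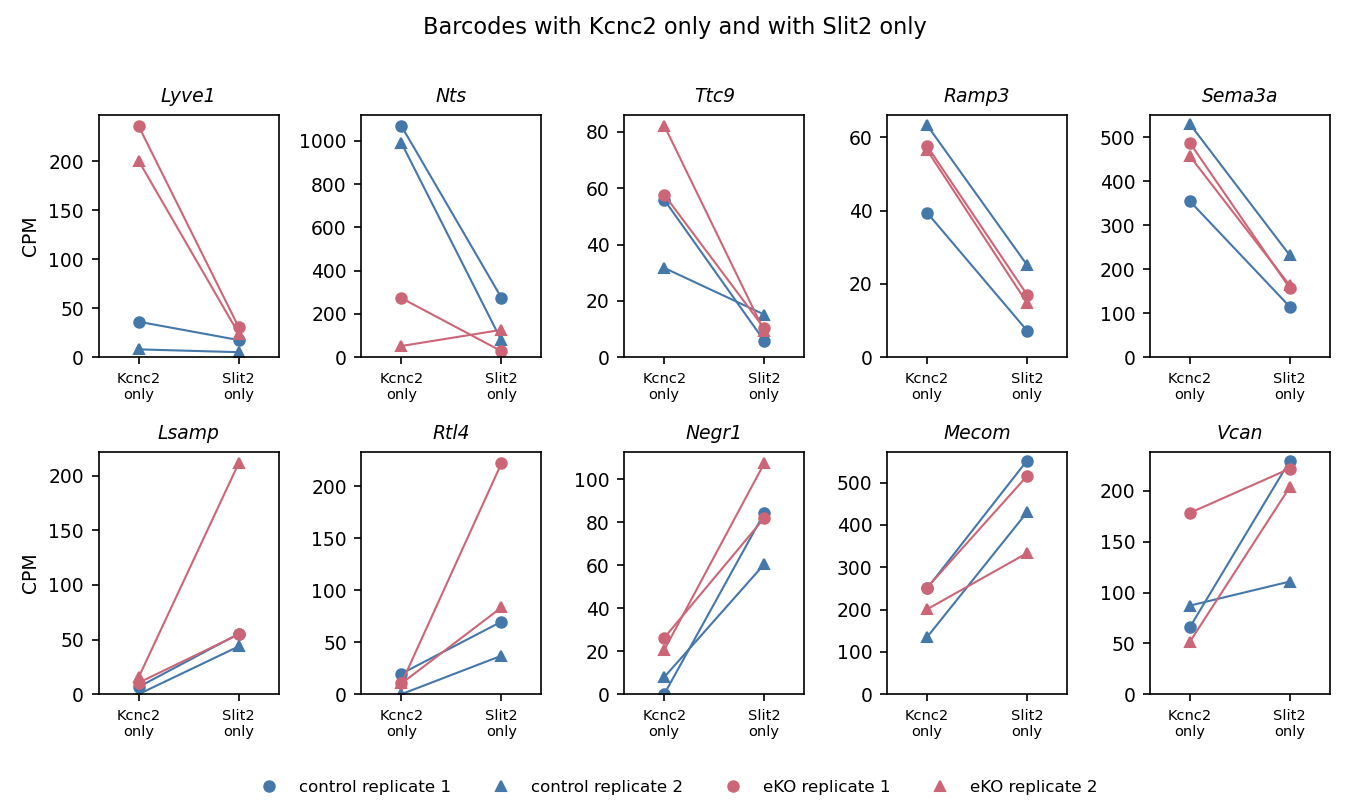
Level in CPM of 10 genes in members with Kcnc2 alone and with Slit2 alone; lines join the values of 1 library (blue control, red eKO, circles replicate 1, triangles replicate 2). Lyve1, Ttc9, Ramp3 and Sema3a are higher with Kcnc2 in all 4 libraries, and Lsamp, Rtl4, Negr1, Mecom and Vcan are higher with Slit2 in all 4.

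The largest differences toward *Slit2* included *Lsamp*, *Rtl4* and *Negr1*. *Lsamp*, a neural adhesion molecule gene (chr16:39984361-42181679) stood at 6.57, 0, 10.5 and 15.4 CPM with *Kcnc2* alone and at 55.2, 43.7, 54.6 and 211 CPM with *Slit2* alone (log2 difference -3.34, SE 0.39). *Negr1*, a neuronal growth regulator gene, differed by -2.76 and *Rtl4*, a retrotransposon-derived gene, by -3.01. Of 11 alternatives, 2 did not call *Lsamp*, 2 did not call *Rtl4* and 1 did not call *Negr1*. *Mecom*, a transcription factor gene, held 250, 135, 252 and 200.5 CPM with *Kcnc2* alone and 552, 430, 515.5 and 333 CPM with *Slit2* alone (-1.09, SE 0.14). Of 26 matrix genes, 4 were higher on either side: *Col4a1*, *Col4a2*, *Adamts5* and *Fn1* with *Kcnc2*, and *Vcan*, *Ltbp1*, *Bgn* and *Fbn2* with *Slit2*. Among 11 alternatives, 7 did not make the calls of *Fn1* and of *Col4a2*, 5 that of *Col4a1* and 4 that of *Ltbp1*. Fibroblast and mesenchyme genes were higher with *Slit2* in 2 of 6 (*Col3a1* and *Dcn*, calls not made by 5 and 7 of 11 alternatives), and none of 9 cardiomyocyte genes differed in edgeR, with a median of -0.053. Erythroid genes were higher with *Slit2* in 2 of 5 (*Hba-a1* and *Hbb-bt*), and immediate early and heat shock genes in 2 of 17 (*Egr1* and *Fos*), beside 0.86% of all genes. Of 11 alternatives, 6 did not call *Hba-a1*, 5 *Egr1* and 6 *Fos*, and 3 of 9 did not call *Hbb-bt*. *Stmn2*, the 1 gene tested of those listed for neural crest and neurons, was higher with *Kcnc2* by 2.22, a call lost in 2 of 7 alternatives. *Ets1* did not pass between the types (0.13, adjusted p = 0.857, edgeR), and no gene of the 10 tested Notch genes did. Genes higher with *Slit2* had a median length of 154.8 kb and those higher with *Kcnc2* 41.6 kb, beside 33.2 kb over all tested, and *Malat1* was higher with *Kcnc2* by 0.19 in 4 of 4 libraries, a call lost in 8 of 11 alternatives. The part of gene length, RNA quality, handling and other cells in this comparison was not tested.

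Members were last compared with the other mural endocardium of the same library. Of 10355 genes that the rule did not use, 1684 (16.3%) passed: 812 higher in members (7.84%) and 872 lower (8.42%). With total counts in place of TMM scaling these were 1059 higher and 621 lower, so the share in each direction depends on the scaling. The median member was deeper, at 6943, 7468.5, 7165 and 4528.5 UMIs against 5413, 5939.5, 5824.5 and 3695. Among barcodes of 6000 to 20000 UMIs on both sides, 492 genes passed, and 479 of these were among the 1684.

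*Nav3*, a neuron navigator gene on the chromosome of *Kcnc2* (chr10:109681259-110456204), differed most clearly. It stood at 584, 707, 1024 and 952 CPM in members against 162, 220, 248 and 225 CPM in the other mural endocardium, a log2 difference of 1.87 (SE 0.07, adjusted p = 1.67e-16, edgeR). *Sema3a* stood at 287, 357, 388 and 311 CPM against 127.5, 97.1, 140 and 99.97 CPM (1.47, SE 0.08). *Nts* stood at 554, 365, 232 and 172 CPM against 207, 219, 65.1 and 57.1 CPM (1.30), and *Rassf9*, whose start lies 21736 bases beyond the end of *Nts* on chromosome 10, was higher by 1.31. *Ramp3* and *Ccser1* were higher by 1.78 and 1.36 in 4 of 4 libraries, and *Lyve1* by 1.87 in 3 of 4.

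Potassium channel genes were higher in 4 of 9 tested, beside 7.84% of all genes, and lower in none. Their median was 0.62 beside -0.014 over all genes. *Kcnq5* stood at 223, 283, 301 and 256 CPM in members against 103.5, 132, 112 and 106 CPM (log2 difference 1.18, SE 0.07), and *Kcnd3*, *Kcnh1* and *Kcnj2* were higher by 1.00, 0.85 and 1.06. The *Kcnj2* call was not made by 4 of 10 alternatives, and that of *Kcnh1* by 3 of 13. In the Slit and Robo list, 2 of 7 were higher, *Srgap1* and *Srgap2*, which encode GTPase-activating proteins that bind Robo receptors (0.40 and 0.31). *Robo1* and *Robo4* had differences of 0.19 and -0.13 (adjusted p = 0.299 and 0.812, edgeR).

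**Figure D5:**
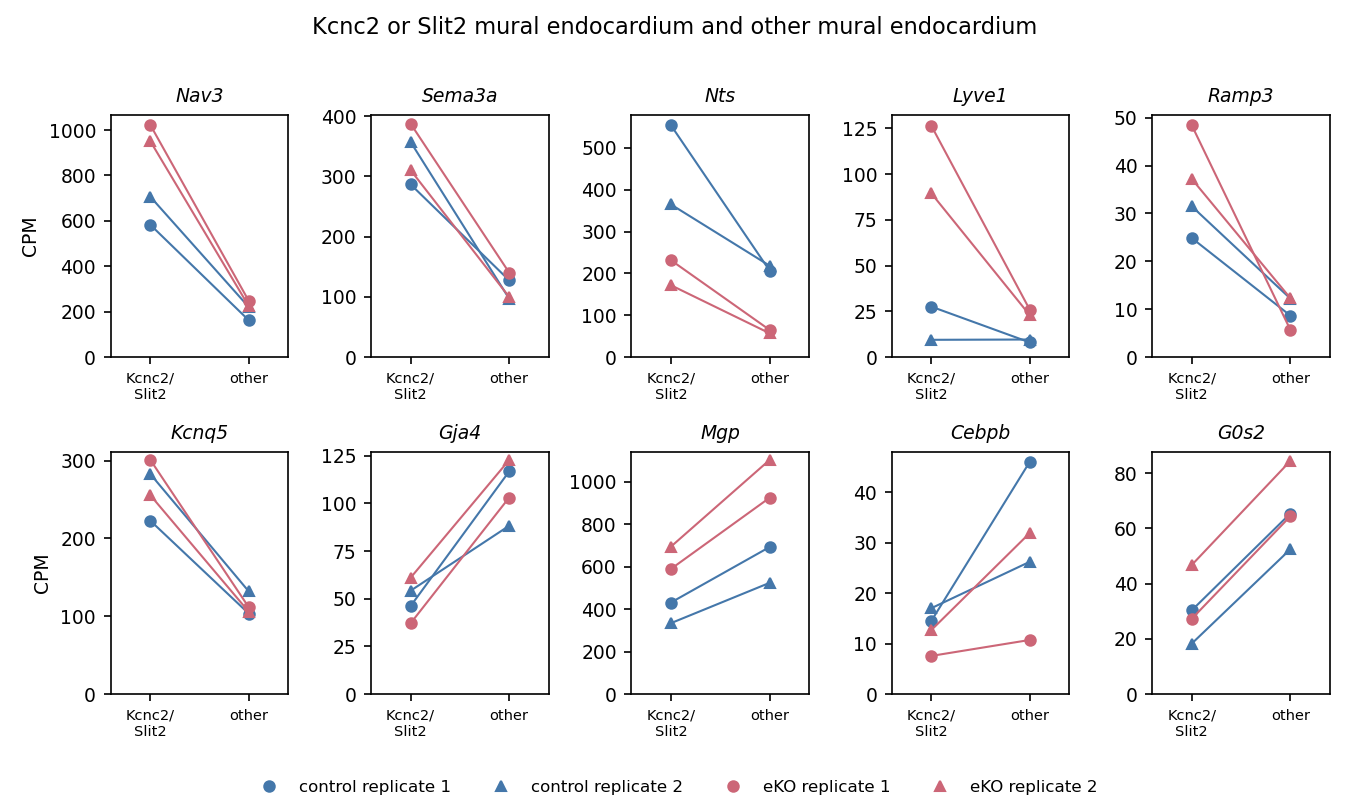
Level in CPM of 10 genes in the Kcnc2 or Slit2 mural class and in other mural barcodes; lines join the values of 1 library (blue control, red eKO, circles replicate 1, triangles replicate 2). Nav3, Sema3a, Nts, Ramp3 and Kcnq5 are higher in the class in all 4 libraries, and Gja4, Mgp, Cebpb and G0s2 lower in all 4.

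Endocardial markers outside the rule were higher in 4 of 8 tested and lower in 1, beside 7.84% and 8.42% of all genes. Of 13 alternatives, 6 did not call *Cdh11*, 3 did not call *Cgnl1* and 2 did not call *Plvap*. *Tmem108* stood at 1551, 1592, 1197 and 1162 CPM against 1171, 1134, 774 and 880 CPM (log2 difference 0.43, SE 0.04), and *Plvap* was lower by 0.28. Basement membrane and matrix genes were higher in 11 of 29 and lower in 4, beside 7.84% and 8.42% of all genes. *Col4a1* was higher by 0.30, *Lama4*, a laminin gene, by 0.49 and *Adamts5*, a proteoglycan-cleaving protease gene, by 0.96. *Mgp* and *Bgn* had differences of -0.71 and -0.58. Of 16 ETS factor genes 5 were higher, *Ets1* among them (0.36, SE 0.07), and of 20 axon guidance genes 4, beside 7.84% of all genes. *Gja4*, which encodes the arterial connexin Cx37, was lower, at 46.1, 54.2, 37.1 and 61.0 CPM against 117, 88.3, 103 and 123 CPM (-1.18, SE 0.11).

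Short and long genes moved apart in this comparison. Ribosomal protein genes were lower in 74 of 80 tested (median -0.23) and nuclear respiratory chain genes in 59 of 80 (median -0.26), beside 8.42% of all genes. Ribosomal proteins made up 15.7%, 16.6%, 17.5% and 17.1% of member UMIs against 17.9%, 18.9%, 20.4% and 18.7% of the others. Genes that were higher had a median length of 127 kb and those lower 7.90 kb, beside 27.15 kb over all tested, and genes of at least 100 kb gave 18.95%, 19.2%, 17.9% and 16.2% of member UMIs against 15.7%, 15.3%, 14.3% and 12.7%. The nuclear RNA *Malat1* made up 1.41%, 1.11%, 1.89% and 1.21% against 0.974%, 0.783%, 1.499% and 0.816%. Cardiomyocyte genes were lower in members in 3 of 13 tested and fibroblast and mesenchyme genes in 3 of 7, beside 8.42% of all genes. None of either list was higher. Of the lower calls, *Nppa* and *Myl3* were each lost in 7 of 13 alternatives, and *Lum* and *Pdgfra* in 4. In 1 more alternative *Myl3* turned its sign and was not called. The part of these cells, of RNA quality and of gene length in these differences was not tested.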

How the data were processed

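Whole UMI counts per gene and barcode were deposited by the authors as made with Cell Ranger 7.1.0 against mm10, per the submitters' processing notes, from Chromium 3′ v3.1 libraries. The later steps of the study (ambient RNA removal, doublet removal, integration, and its test over single cells) are not in these counts and were not used. The 21 selecting genes and the 30 gene lists were chosen with earlier results of these data known.

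Barcodes were classed by UMI limits, and UMIs were summed per library and class. Sums were tested with edgeR 4.0.16 in R 4.3.3 (TMM scaling, filterByExpr, quasi-likelihood, Benjamini-Hochberg threshold 0.05), with *Ets1* eKO against control over 2 libraries each. Contrasts within libraries had the library as a term. Selecting and mitochondrial genes stayed in library sizes but were not tested. Classes and shares were made in Python 3.11.15 (scikit-learn 1.9.0, scipy 1.17.1, pandas 2.3.3, numpy 2.4.6). The fit was first tested on simulated data.

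Doublets were scored against 2 simulated doublets per barcode (50 neighbours, 30 components, 2000 variable genes), marked at 0.8% per 1000 barcodes, and removed only as an alternative. Positions are from GENCODE vM21 (GRCm38). Named genes were *Ets1*, endothelial genes of the study, the 10 largest changes per direction at a mean of at least 20 CPM (5 at 30 CPM between *Kcnc2* and *Slit2* types and for the difference of effects) and up to 4 per list. *Lgals1* and *Igfbp5* were singled out after their values were seen. Alternatives tried were no filter on low counts, scaling by total counts, DESeq2 1.42.0, a replicate block, each library left out, doublets removed, other selection limits, and, chosen after seeing the data, barcodes of at most 2% hemoglobin UMIs. The values of 2 genes past a threshold are not reported here.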

Additional observations from a re-analysis of the deposited data

Results flagged for a closer look

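For 10 genes the *Ets1* eKO change differed between the class and the other mural endocardium (edgeR, members minus others, log2), and 9 of them are given here. *Unc5c* had a difference of 1.31, with values given in the report, and 5 of 10 alternatives did not call it. Hemoglobin genes had differences of -6.93 (*Hbb-bs*), -6.75 (*Hba-a2*), -7.03 (*Hba-a1*), -7.05 (*Hbb-bt*), -6.19 (*Hbb-y*) and -4.84 (*Hba-x*), and 5 of 10 alternatives did not call *Hbb-y*. With doublets removed, *Hbb-bs*, *Hba-a2*, *Hba-a1* and *Hbb-bt* turned to positive values that did not pass. At most 2% hemoglobin UMIs turned *Hbb-bs*, *Hba-a2* and *Hbb-bt* in the same way. *Hbb-bs* stood at 1144, 2614, 63.6 and 492 CPM in members and at 104, 313, 1242 and 5519 CPM in the others. *Ctnna2*, a catenin gene, held 36.7, 27.7, 18.9 and 16.6 CPM in members and 10.7, 5.25, 18.6 and 25.6 CPM in the others (-2.33). *Adamts19*, a protease gene, held 18.55, 33.4, 25.0 and 11.9 CPM against 2.67, 4.37, 16.5 and 17.35 CPM (-2.80), and 6 of 9 alternatives did not call it.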

How the results depend on the processing

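Beside the 169 genes called in *Ets1* eKO, DESeq2 called 73 in all, the test without a filter on low counts 385 (169 of them shared), and the class without limits on *Dlk1* and *Nrg1* 304 (136 shared). Leaving out 1 library gave 124 to 710. Same-numbered libraries did not deviate together (r = -0.00875 across 9950 genes). With 2 libraries per group this cannot show whether they shared handling. The replicate block gave 338 calls. Against the other mural endocardium (1684), DESeq2 called 647, the fit without a library term 54 and barcodes of 6000 to 20000 UMIs 492, and leaving out 1 library gave 1095 to 1322. Between *Kcnc2* and *Slit2* types (134) these gave 22, 9 and 48, and 71 to 120, and without a filter 50 were higher and 77 lower with *Kcnc2*. For the difference of effects (10), DESeq2 gave 4, no filter 20, selection at 5000 UMIs 3, at most 2% hemoglobin UMIs 2 and doublets removed 0 (edgeR, 500 at an unadjusted p under 0.05), and leaving out 1 library 4 to 32.

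Signs turned for hemoglobin genes and *Myl3*. In *Ets1* eKO against control, at most 2% hemoglobin UMIs gave 0.55 (*Hba-a1*), 0.46 (*Hba-a2*), 0.68 (*Hbb-bs*) and 0.95 (*Hbb-bt*), and selection at 5000 UMIs 0.55 (*Hba-a1*), 0.48 (*Hba-a2*) and 0.29 (*Hbb-bt*). Against the other mural endocardium, *Hbb-bt* was 1.63 with doublets removed and *Myl3* 0.080 with selection at 5000 UMIs. For the difference of effects, doublets removed gave 0.90 (*Hbb-bt*), 0.075 (*Hba-a1*), 0.63 (*Hbb-bs*) and 0.42 (*Hba-a2*), and at most 2% hemoglobin UMIs 0.63 (*Hbb-bt*), 0.44 (*Hbb-bs*) and 0.19 (*Hba-a2*). The cause was not tested. *Ets1*, *Mt1* and *Sox18* kept their direction and call between *Ets1* eKO and control in all 13 alternatives. Depth limits low genes most: in members, a count of 0 allows 1.36 to 2.38 CPM per library.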
